A study of Mus musculus with 42 samples.

Results

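The response to a PDE10 inhibitor was compared between striatum (STR) and hippocampus (HPC) of wild-type (WT) mice. For each gene, the change from vehicle (Veh) to inhibitor (PDE10i) in hippocampus was subtracted from the same change in striatum, and the result is called the region difference below. It rests on 23 of the 42 arrays of the series, which are all arrays labelled WT. WT striatum was represented by 5 Veh and 6 PDE10i arrays and WT hippocampus by 6 Veh and 6 PDE10i arrays. All groups consisted of C57BL6 tissue that was dissected and frozen, and the labels name no further allele, transgene or agent for the WT groups. A further 19 arrays carry the label PDE10A KO, namely 5 STR Veh, 4 STR PDE10i, 5 HPC Veh and 5 HPC PDE10i. They were used for the estimate of spread and for a comparison of the region difference between genotype labels. No label names the compound, its dose, the time to dissection or the age of the mice. Nor do the labels state that each array is a different mouse, and p-values then measure array-to-array spread that may be technical.

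PDE10A hydrolyses the cyclic nucleotides cAMP and cGMP. In the brain it is concentrated in the GABAergic projection neurons of the striatum, of both the direct (D1 receptor) and the indirect (D2 receptor) pathway, and it is much less abundant in hippocampus. Its inhibition raises cyclic nucleotides in these neurons, which act through protein kinase A (PKA), the counteracting protein phosphatase 1 (PP1) and the transcription factor CREB. A comparison of the regions therefore asks how far the transcriptional response follows the tissue in which the enzyme is abundant.

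Markers of the neurons of each region followed the labelled tissue. The mean log2 signal of 23 genes shared by striatal projection neurons was 11.57 ± 0.20 (SD, n = 5) in WT STR Veh and 8.76 ± 0.05 (n = 6) in WT HPC Veh arrays, and that of 9 glutamatergic neuron markers was 7.75 ± 0.75 (n = 5) and 9.45 ± 0.04 (n = 6). The WT HPC PDE10i array 13 stood apart in 14 markers of hippocampal subfields, with a mean of 7.26 against 8.6 to 9.20 on the other 11 WT hippocampal arrays. The dentate gyrus markers Prox1 (4.89), Dsp (4.16), Tdo2 (3.27) and C1ql2 (6.00) were all lower there than on any of these arrays, where the lowest values were 6.72, 7.92, 6.06 and 8.58. Other subfield markers were also lowest on array 13, among them Fibcd1 (7.23), Man1a (8.76), Nptx1 (11.38) and Grik4 (7.42). Calb1 (10.7) and Wfs1 (10.7) lay within the range of the other arrays. Fewer cells of a kind and less RNA per cell cannot be told apart in such tissue, and results without array 13 are given where they differ.

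Pde10a, which stood at 12.32 ± 0.26 (SD, n = 5) in WT STR Veh and 9.0 ± 0.04 (n = 6) in WT HPC Veh, had a region difference of -0.10 ± 0.26 (SE, limma, adjusted p = 0.91). In the KO Veh groups it stood at 12.35 ± 0.22 (n = 5) in striatum and 9.47 ± 0.45 (n = 5) in hippocampus, so in striatum it gives no check of the labels. Pde10a lies on chromosome 17, and the arrays were therefore placed on a scale built from 15 other genes of that chromosome, on which the median of the WT Veh arrays is 0 and that of the KO PDE10i arrays is 1. Of the 23 WT arrays, 5 lay on the KO side of 0.5. These were STR PDE10i 13 (0.59), 14 (0.79) and 15 (0.54) and HPC PDE10i 12 (1.04) and 14 (0.79), numbered as in the sample titles. Array HPC PDE10i 13 lay on the WT side. In the KO groups, STR Veh 25 (0.10) and HPC Veh 25 (-0.00159) and 26 (0.11) lay on the WT side. Results are given for all arrays as labelled and, where they rest on these 8 arrays, also without them. In hippocampus the Pde10a signal itself, which is not part of the score, split the same way. It was 9.04 and 9.08 on KO HPC Veh 25 and 26, against 9.52 to 10.16 on the other KO HPC Veh arrays. On WT HPC PDE10i 12 and 14 it was 9.88 and 9.84, against 8.54 to 9.29 on the other WT HPC PDE10i arrays.

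In the whole set of labelled arrays, 39 of 18193 genes had a region difference past the threshold of an adjusted p under 0.05 (limma, Benjamini-Hochberg, two-sided), which is 0.214% of the genes tested. The difference was positive for 28 genes (0.154%) and negative for 11 (0.0605%). The largest positive values belonged to Nnat, Irak3, Myo3b and Pde1c, at 2.29-fold to 2.64-fold, and the largest negative value to Clspn. An unadjusted p under 0.05 was reached by 2310 genes (12.7%), of which 1358 were positive. In the same fit, 299 genes (1.64%) passed for the striatal response and 0 for the hippocampal response, where 1184 genes (6.51%) had an unadjusted p under 0.05. The median region difference over all genes was -0.00482 on the log2 scale, and 48.6% of the genes had a positive value.

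The 39 genes mostly moved in striatum. All but 1 of them, Tm4sf4, also passed for the striatal response alone, and none passed for the hippocampal response, in which 13 had an unadjusted p under 0.05. The striatal change was the larger of the pair for 37 genes. Its median size was 0.49 (log2), against 0.10 in hippocampus. The signs were opposite for 35 genes: 26 were positive in striatum and negative in hippocampus and 9 were the reverse. Per gene, the hippocampal change made up a median of 17.6% of the region difference. The genes were chosen on the striatal minus hippocampal change, which itself favours opposite signs. These counts and this share are therefore a description. The difference ranged in size from 0.36 to 1.40, with a median of 1.5-fold. None of the 39 genes lies on chromosome 17.

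**Figure D1:**
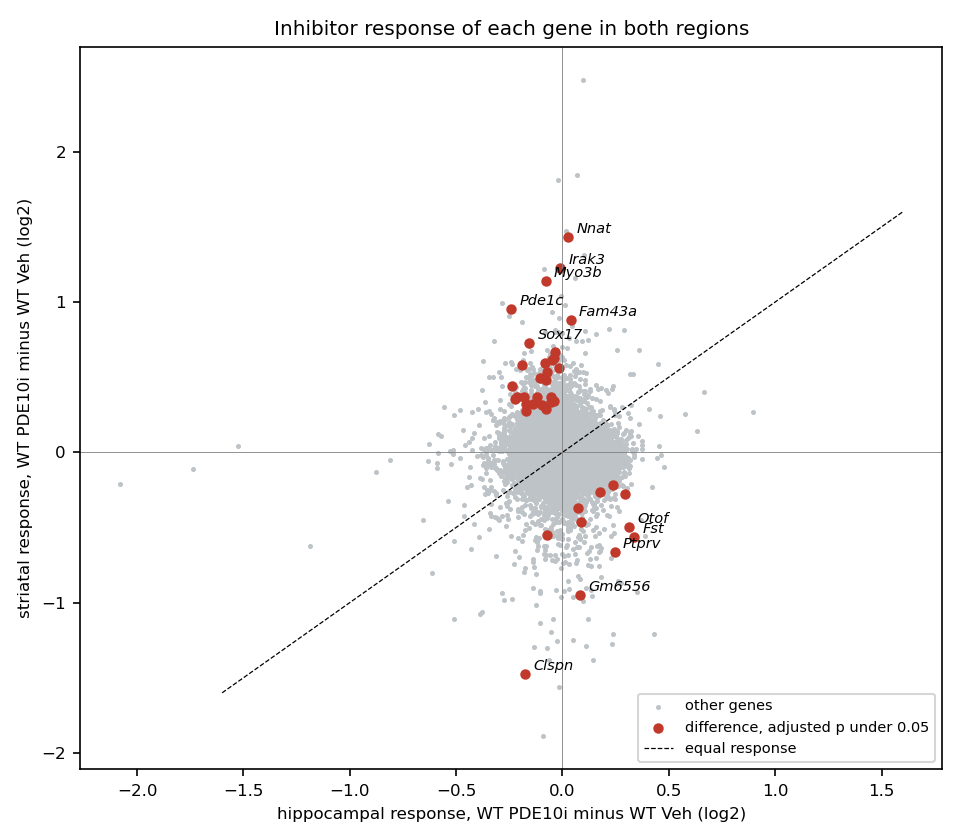
Each point is 1 of 18193 genes, placed by its mean log2 change from Veh to PDE10i in WT hippocampus (horizontal axis) and in WT striatum (vertical axis), with the dashed line marking equal change. The 39 genes past the threshold for the region difference are in red, and those with a difference above 0.8 in size are named; they spread along the striatal axis, with hippocampal changes between -0.24 and 0.34.

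Nnat, which encodes neuronatin, a small membrane protein of the endoplasmic reticulum expressed from the paternal allele, had the largest region difference. Its log2 signal in WT striatum was 9.30, 10.26, 10.22, 9.37 and 9.47 on the Veh arrays and 11.00, 11.14 and 11.31 (lowest, median and highest of 6) on the PDE10i arrays. All 6 PDE10i arrays lay above all 5 Veh arrays. In hippocampus the Veh arrays had 9.74, 10.41 and 10.64 and the PDE10i arrays 9.77, 10.36 and 10.67, so these groups covered the same range. The striatal change was 1.43 ± 0.17 (SE) and the hippocampal change 0.03 ± 0.16, with a 95% interval from -0.30 to 0.36. The region difference of 1.40 ± 0.24 corresponds to 2.64-fold (limma, adjusted p = 0.00513).

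Among regulators of cyclic nucleotides and of their kinase, 2 genes passed. Pde1c encodes a phosphodiesterase of cAMP and cGMP that is activated by calcium and calmodulin. In striatum it had 7.99, 7.80, 7.97, 8.10 and 7.25 on the Veh arrays and 8.64, 8.81 and 8.86 (lowest, median, highest) on the PDE10i arrays, again without overlap. In hippocampus it was lower throughout, at 5.67, 6.18 and 6.52 with vehicle and 5.61, 5.87 and 6.04 with inhibitor, and these groups overlapped. Its region difference was 1.20 ± 0.23 (SE, limma, adjusted p = 0.0107), and all 5 further probe sets of Pde1c had the same sign. With the mean of all its probe sets the adjusted p was 0.075. The other 17 of 18 measured phosphodiesterase genes did not pass. Pde10a is among them.

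Ppp1r2 encodes inhibitor-2, a protein that binds and restrains PP1. Its striatal signal was 11.86, 11.58, 11.73, 11.69 and 11.65 on the Veh arrays and 12.09, 12.42 and 12.57 on the PDE10i arrays, with no overlap. The 3 highest of the PDE10i values came from arrays 10, 11 and 12. In hippocampus it had 10.72, 10.92 and 11.03 with vehicle and 10.81, 10.87 and 10.94 with inhibitor. The region difference was 0.70 ± 0.13 (SE, limma, adjusted p = 0.0107), and its 3 further probe sets had the same sign. Of 18 measured regulators of PKA and PP1 in the list, Ppp1r2 was the only gene past the threshold, and 13 had a positive value with a median of 0.06. Ppp1r7, a regulatory subunit of PP1 outside that list, and Ppp2r5b, a regulatory subunit of protein phosphatase 2A, also passed, at 0.41 ± 0.09 and 0.38 ± 0.08.

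Among the other positive genes, Slc7a8, a transporter of neutral amino acids, had 7.76, 7.85, 7.63, 7.63 and 7.67 on the striatal Veh arrays and 8.08, 8.35 and 8.69 on the PDE10i arrays, which did not overlap. In hippocampus its values were 7.95, 8.05 and 8.11 with vehicle and 7.78, 8.0 and 8.12 with inhibitor. Slc7a8 thus differed between regions by 0.66 ± 0.12 (SE, limma, adjusted p = 0.00803). Dgat2, which makes triglycerides, had a difference of 0.66 ± 0.14, Cftr, a chloride channel opened by PKA, one of 0.77 ± 0.17, and Atp13a5, a P-type ATPase, one of 0.68 ± 0.15. Cftr was near the low end of the signal range, at 3.71 to 5.64, and its inhibitor arrays lay below all vehicle arrays in hippocampus. A second, dimmer probe set of Cftr had 0.17 ± 0.09, and the mean of both had 0.47. Abat, which degrades the transmitter GABA, differed by 0.42 ± 0.09 (adjusted p = 0.0229). Its striatal groups did not overlap, at 11.31, 11.21, 11.40, 11.23 and 11.13 with vehicle and 11.53, 11.63 and 11.70 with inhibitor, and a second, dim probe set of the gene had the opposite sign (-0.13 ± 0.12). With the mean of both probe sets Abat did not pass (adjusted p = 0.496).

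Fam43a and Myo3b, a class III myosin, also had striatal groups that did not overlap. Fam43a had 7.23, 7.05, 6.89, 6.72 and 7.35 with vehicle and 7.80, 7.92 and 8.09 with inhibitor in striatum, while in hippocampus the medians were 6.88 and 6.89. Its region difference was 0.84 ± 0.15 (SE, limma, adjusted p = 0.00803), and that of Myo3b was 1.22 ± 0.26 (adjusted p = 0.0294).

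Irak3 and Sox17 were uneven among the striatal inhibitor arrays. Irak3, an inhibitor of Toll-like receptor signalling, had 4.83, 4.60, 4.74, 4.72 and 4.50 on the Veh arrays. On PDE10i arrays 10, 11 and 12 it had 6.38, 6.24 and 6.5, and on arrays 13, 14 and 15 it had 5.79, 4.83 and 5.66, so that array 14 reached the vehicle range. The region difference was 1.24 ± 0.27 (SE, limma, adjusted p = 0.0313). A second, dimmer probe set of Irak3 had 0.25 ± 0.15, and the mean of both had 0.74. Sox17, a transcription factor of endothelial cells, was likewise highest on arrays 10 to 12, with 7.55, 7.6 and 7.65, and had 7.36, 6.83 and 7.18 on arrays 13 to 15. Its Veh arrays lay at 6.53 to 6.83, so array 14 again touched them. It differed by 0.88 ± 0.17 (adjusted p = 0.0124). A second probe set of Sox17 had 0.42 ± 0.17, and with the mean of both the call was lost (0.65 ± 0.16, adjusted p = 0.0753). The region difference was 0.59 ± 0.13 for its relative Sox18 and 0.67 ± 0.15 for the membrane protein gene Itm2a.

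**Figure D2:**
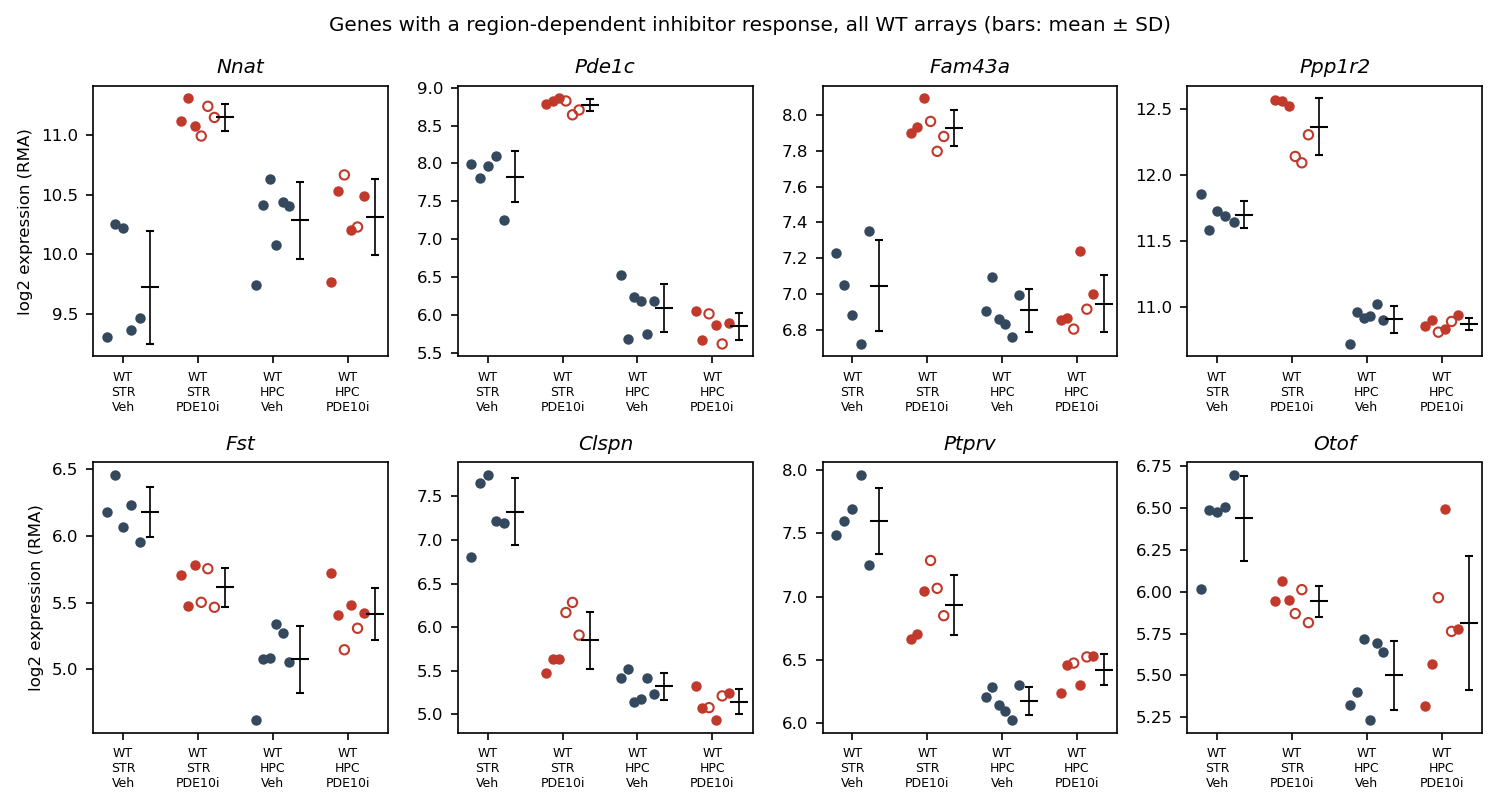
Log2 RMA signal of 8 genes on the 23 WT arrays, with Veh arrays in dark grey, PDE10i arrays in red, open circles for arrays against their label by the chromosome 17 score, and mean ± SD beside each group. The striatal PDE10i arrays lie above the Veh arrays in the upper row (Nnat, Pde1c, Fam43a, Ppp1r2) and below them in the lower row for Fst and Clspn, with an overlap for Ptprv and Otof, while the hippocampal groups overlap in every panel.

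Among the genes with a negative difference, Fst had the smallest p. It encodes follistatin, a secreted protein that binds activin and blocks it. In striatum Fst had 6.18, 6.46, 6.07, 6.23 and 5.95 on the Veh arrays and 5.46, 5.6 and 5.78 on the PDE10i arrays, all of them lower. In hippocampus the Veh arrays had 4.62, 5.08 and 5.34 and the PDE10i arrays 5.15, 5.41 and 5.72, shifted upward with an overlap. The striatal change was -0.56 ± 0.11 (SE) and the hippocampal change 0.34 ± 0.11 (unadjusted p = 0.00266, adjusted p = 0.655). The region difference was -0.90 ± 0.15 (limma, adjusted p = 0.00513). The other 13 of 14 measured genes of activin signalling did not pass.

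Clspn, which encodes claspin, an adaptor of the DNA replication checkpoint, had the largest negative value. On the striatal Veh arrays Clspn had 6.80, 7.65, 7.75, 7.22 and 7.2, and on the PDE10i arrays 5.47, 5.77 and 6.28, without overlap. The inhibitor arrays thus approached the hippocampal level, which was 5.14, 5.32 and 5.52 with vehicle and 4.93, 5.14 and 5.33 with inhibitor. The region difference was -1.30 ± 0.23 (SE, limma, adjusted p = 0.00803). A second, dimmer probe set of Clspn had -0.05 ± 0.11, and the mean of both had -0.68 ± 0.14 (adjusted p = 0.0279). Ptprv, a receptor-type tyrosine phosphatase, had 7.49, 7.6, 7.69, 7.96 and 7.25 on the striatal Veh arrays and 6.67, 6.95 and 7.29 on the PDE10i arrays, with an overlap of 1 array on each side. Its region difference was -0.91 ± 0.15 (adjusted p = 0.00513).

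Several negative differences had a sizeable part from hippocampus. Otof, a calcium sensor of vesicle release in inner hair cells, had a striatal change of -0.49 ± 0.13 and a hippocampal change of 0.31 ± 0.12 (SE). Its hippocampal inhibitor arrays ranged from 5.32 to 6.49 around a median of 5.77, against 5.23 to 5.72 with vehicle. The 6.49 came from HPC PDE10i 13, the array with low hippocampal subfield markers, and the next highest value was 5.96. Without that array the region difference of Otof was -0.67, against -0.81 with all arrays. Fblim1, a filamin-binding protein of cell junctions, changed by -0.28 ± 0.08 and 0.29 ± 0.07. Its hippocampal vehicle arrays had 4.89, 4.97 and 5.26 and the inhibitor arrays 5.22, 5.32 and 5.50, and a second, dimmer probe set of the gene had a difference of 0.02 ± 0.16. With the mean of both, Fblim1 had -0.28 ± 0.11 (limma, adjusted p = 0.326). Tm4sf4 changed by -0.22 ± 0.07 and 0.24 ± 0.07, with hippocampal inhibitor arrays (5.72 to 5.98) above all vehicle arrays (5.49 to 5.68). None of these hippocampal changes passed the threshold on its own.

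A further 4 named genes had negative values. Hdac4, a class IIa histone deacetylase, had 8.18, 8.15, 7.88, 8.16 and 8.18 on the striatal Veh arrays and 7.37, 7.67 and 7.96 on the PDE10i arrays. Veh array 3 lay within the inhibitor range. The region difference was -0.55 ± 0.12 (SE, limma, adjusted p = 0.0331). Both its other probe sets had the same sign, and the mean of all 3 had -0.37 ± 0.12 (adjusted p = 0.208). Ago4, an Argonaute protein, differed by -0.48 ± 0.11, Rnf144a, a ubiquitin ligase, by -0.44 ± 0.08, and Tnn, the matrix protein tenascin-N, by -0.44 ± 0.10. The 1 further negative gene carries a predicted name and was left out of the description.

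Across the 39 genes, the striatal Veh and PDE10i groups did not overlap for 24, against 1.34% of all genes tested, and the hippocampal groups did not overlap for 2 (Tm4sf4 and Cftr), against 0.55%. The genes were chosen from the same contrasts, so these counts are a description. Of the 39 genes, 26 had several probe sets, and 30 of their 35 other probe sets had the same sign, 16 of them with an unadjusted p under 0.05. In the vehicle groups the signal was higher in striatum than in hippocampus for 28 of the 39. The same share over all genes was not computed, so this count does not show whether the 39 genes differ from the rest in this.

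The call of single genes depended on which array was present. Leaving out each of the 23 WT arrays in turn, 17 of the 39 genes passed every time. They were Nnat, Pde1c, Ppp1r2, Fam43a, Slc7a8, Sox17, Avpi1, Wdr17, Prmt6, Tbc1d16, Atpsckmt, Pigx, Fst, Clspn, Ptprv, Fblim1 and Rnf144a. The other 22 passed in at least 6 of the 23 fits, and the highest adjusted p was 0.115 (limma). Of the 17, Atpsckmt, Pigx and Fblim1 each had a dimmer second probe set of opposite sign (-0.13 ± 0.12, -0.02 ± 0.09 and 0.02 ± 0.16). Among those described above, Dgat2 and Abat did not pass without STR Veh 5 (adjusted p = 0.0634 and 0.0638), nor Irak3 without STR PDE10i 12 (0.0793), Cftr without STR Veh 1 (0.0811), Myo3b and Otof without STR Veh 5 (0.0871 and 0.0793) and Hdac4 without STR PDE10i 12 (0.0838). The number of genes past the threshold fell to 19, 22 and 23 without STR PDE10i 12, 11 and 10, and to 24 and 25 without HPC Veh 3 and HPC PDE10i 12. Without HPC PDE10i 13, the array with low hippocampal subfield markers, it was 30, of which 28 were among the 39. Itm2a, Irak3, Atp13a5, Hdac4, Ago4 and Myo3b were among those lost. The number rose to 154 and 122 without STR PDE10i 14 and 13 and to 91 without HPC PDE10i 10. All 39 genes kept their sign in every alternative in which they were tested, of 39 computed.

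**Figure D3:**
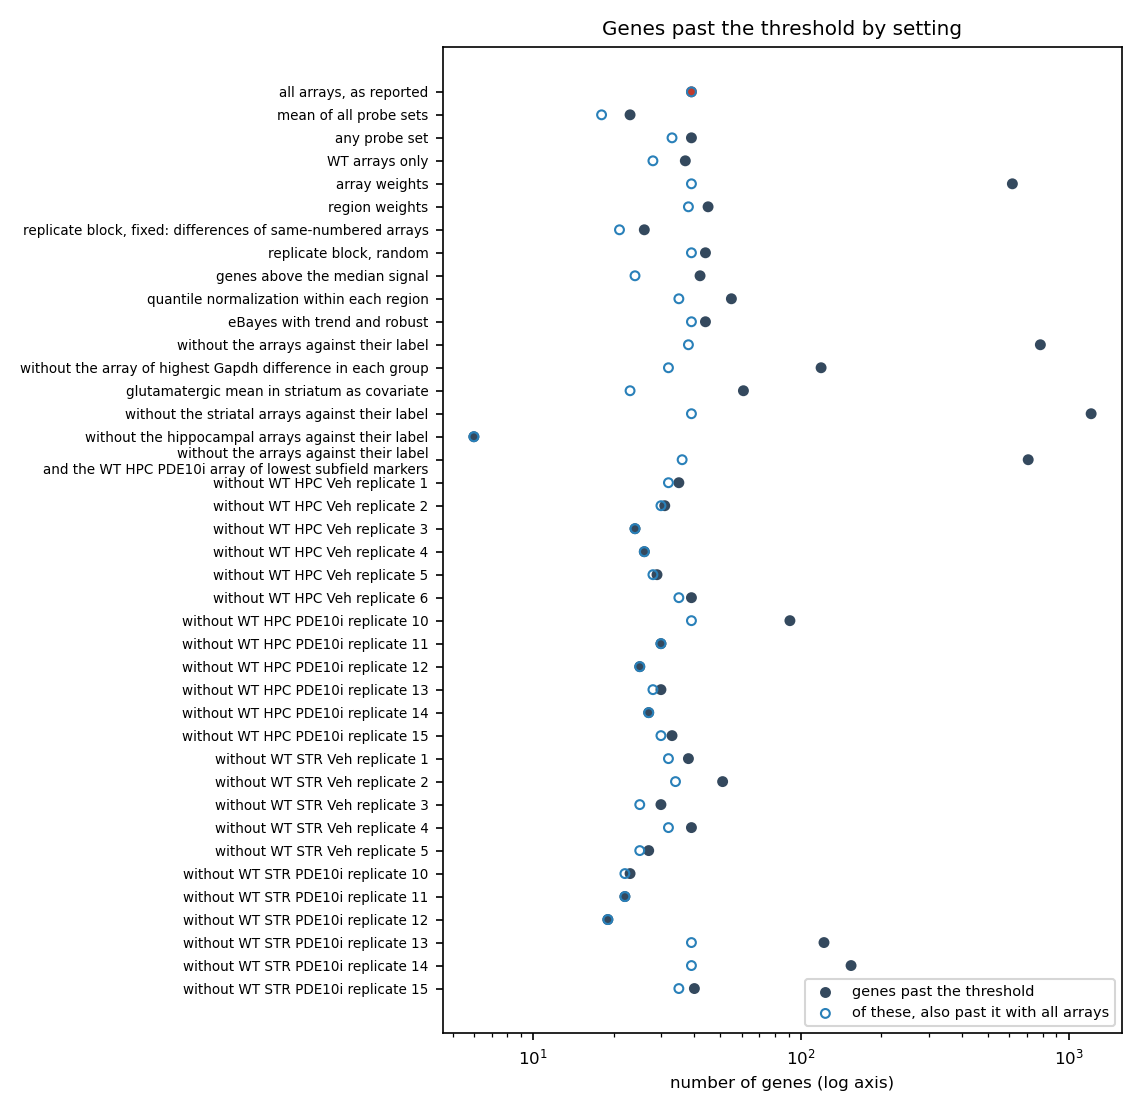
Number of genes with a region difference past the threshold under each setting (filled points, log axis) and how many of them are among the 39 found with all arrays (open blue points). The count runs from 6 without the hippocampal arrays against their label to 1215 without the striatal arrays against their label.

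CREB binds the cAMP response element, and the promoters of the 39 genes were searched for it as a description. RefSeq windows (GRCm38.p6) of 250 bases before to 50 after the start were at hand for 28 of the 39 genes. The full element TGACGTCA, which reads the same on both strands, occurred in 1 of the 28 (3.57%), Pet100, an assembly factor of cytochrome c oxidase, and in 2.92% of 14452 tested genes with a window. The core TGACG, on either strand and also where it lies within the full element, occurred in 8 of 28 (28.6%) and in 30.0% of the tested genes. Below are the 250 bases before the start of Nnat, which has the largest difference and holds neither motif, Hdac4, which holds the most cores among the genes with a negative difference, and Pet100, each 5′ to 3′ on the strand of the gene with motifs in capitals. They lie at chr2:157559828-157560077 (plus strand), chr1:92180342-92180591 (minus strand) and chr8:3621301-3621550 (plus strand).
Nnat: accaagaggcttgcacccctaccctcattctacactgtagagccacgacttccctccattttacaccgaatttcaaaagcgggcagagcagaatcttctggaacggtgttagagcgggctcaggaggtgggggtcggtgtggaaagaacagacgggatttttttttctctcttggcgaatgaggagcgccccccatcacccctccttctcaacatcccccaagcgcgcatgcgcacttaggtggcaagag
Hdac4: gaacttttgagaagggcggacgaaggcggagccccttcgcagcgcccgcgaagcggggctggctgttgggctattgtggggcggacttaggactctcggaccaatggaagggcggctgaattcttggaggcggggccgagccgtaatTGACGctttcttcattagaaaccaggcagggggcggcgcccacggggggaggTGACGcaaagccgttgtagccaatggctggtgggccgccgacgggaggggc
Pet100: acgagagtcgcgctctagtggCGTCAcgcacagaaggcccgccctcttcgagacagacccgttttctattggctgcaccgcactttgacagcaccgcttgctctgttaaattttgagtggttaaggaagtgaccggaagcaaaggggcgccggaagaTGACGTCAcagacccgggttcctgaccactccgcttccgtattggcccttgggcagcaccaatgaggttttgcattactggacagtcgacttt

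The gene lists were chosen for pathways and cell types, with earlier results of these data known, and are described here without a test of the list. Of their 570 distinct measured genes, 6 passed in all (all genes: 0.214%). Nuclear genes of oxidative phosphorylation, which encode subunits of the respiratory chain and of ATP synthase, had small positive values. Of 61 measured, 56 were positive (all genes: 48.6%), 28 had an unadjusted p under 0.05 in that direction (all genes: 7.46%), and none passed the adjusted threshold. Their median difference was 0.13, made of 0.10 in striatum and -0.04 in hippocampus. Ndufb3, a subunit of complex I, was the nearest, at 0.27 ± 0.07 (SE, limma, adjusted p = 0.0653). The mean over the list was 11.30 to 11.42 on striatal Veh arrays and 11.34 to 11.57 on striatal PDE10i arrays.

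Markers of vascular and mural cells had a median difference of 0.35, the highest of the 36 lists. Of 13 measured, 11 were positive (all genes: 48.6%), 8 had an unadjusted p under 0.05 in that direction (all genes: 7.46%), and Sox17 passed (all genes: 0.154%). Rgs5, a pericyte gene, had 0.67 ± 0.18 (SE, limma, adjusted p = 0.0876) and Cldn5, a tight junction protein of brain endothelium, 0.58 ± 0.16 (adjusted p = 0.117). The mean of the markers was 7.73 to 7.96 on striatal Veh arrays and 7.89 to 8.41 on PDE10i arrays, and in hippocampus 7.69 to 7.87 and 7.70 to 7.79. In tissue of this kind, more cells of a type and more RNA per cell cannot be told apart.

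All 7 genes of GABA handling were positive (all genes: 48.6%), with a median of 0.24. The synthesis genes Gad1 (0.24 ± 0.08) and Gad2 (0.43 ± 0.16) and the vesicular transporter gene Slc32a1 (0.44 ± 0.14) had an unadjusted p under 0.05, and with Abat, which passed, they make 4 of 7 (all genes: 7.46%). Neuron class lists had small medians, at 0.08 for direct and 0.08 for indirect pathway markers and 0.12 for genes shared by both. Past the threshold were 0 of 9, 0 of 8 and 0 of 23. An unadjusted p under 0.05 was reached by 3 direct (2 positive, 1 negative) and 2 indirect (1 positive, 1 negative) pathway markers. The same held for 4 shared genes, all positive. These are 33.3%, 25% and 17.4% of the lists (all genes: 12.7%). Pdyn, which encodes prodynorphin and marks direct pathway neurons, had 0.60 ± 0.21 (SE, limma, adjusted p = 0.235). Penk, the enkephalin precursor of indirect pathway neurons, had 0.55 ± 0.21 (adjusted p = 0.263), of which -0.32 came from hippocampus. Of 32 early response genes, which neurons switch on within minutes of activity, 14 were positive and none passed. An unadjusted p under 0.05 was reached by 9 of them (28.1%, all genes: 12.7%), of which 7 were positive and 2 negative.

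Markers of cortical and hippocampal glutamatergic neurons had the lowest median, -0.69. None of the 9 was positive (all genes: 48.6%), and 4 had an unadjusted p under 0.05 (all genes: 5.23% in that direction), among them Neurod6 (-1.80 ± 0.81) and Slc17a7, the vesicular glutamate transporter (-1.32 ± 0.65). The shift lay in striatum, where the median change was -1.07 and the mean of the markers ran from 6.64 to 8.39 on Veh arrays and from 6.34 to 7.82 on PDE10i arrays. In hippocampus the same mean stayed between 9.35 and 9.51 in both groups. Of 22 genes of presynaptic release, 8 were positive, with a median of -0.06. An unadjusted p under 0.05 was reached by 5 of them, all negative (all genes: 5.23%), among them Stx1a (-1.05 ± 0.38) and Otof, the only one past the threshold. With the glutamatergic mean of the striatal arrays as a covariate, 61 genes passed, among them 14 of the 28 positive and 9 of the 11 negative genes.

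In 5 of the lists with a median difference above 0.1 in size, the hippocampal median was the larger part. All 11 microglia markers were positive (all genes: 48.6%), with a median of 0.17, while their median change was 0.01 in striatum and -0.20 in hippocampus. Cd68, a lysosomal protein of phagocytes, came nearest to the threshold (0.54 ± 0.13, limma, adjusted p = 0.0629). Of 15 cholesterol synthesis genes, 11 were positive, with a median of 0.16, and all 15 had a negative change in hippocampus (median -0.09). The 14 hippocampal subfield markers had a median of 0.23, with -0.00 in striatum and -0.15 in hippocampus, which became 0.03 and 0.02 for the difference and the hippocampal change without HPC PDE10i 13. The median was 0.19 for 10 thalamic neuron markers (-0.18 in hippocampus) and -0.12 for 7 hypothalamic ones (0.11 in hippocampus). The thalamic mean was uneven among the hippocampal Veh arrays, at 7.27 to 8.24 (mean 7.55, SD 0.35). It was 7.32 to 7.49 on the hippocampal PDE10i arrays, within the Veh range. The thalamic list was not computed without the highest Veh array. No gene of these 5 lists passed.

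**Figure D4:**
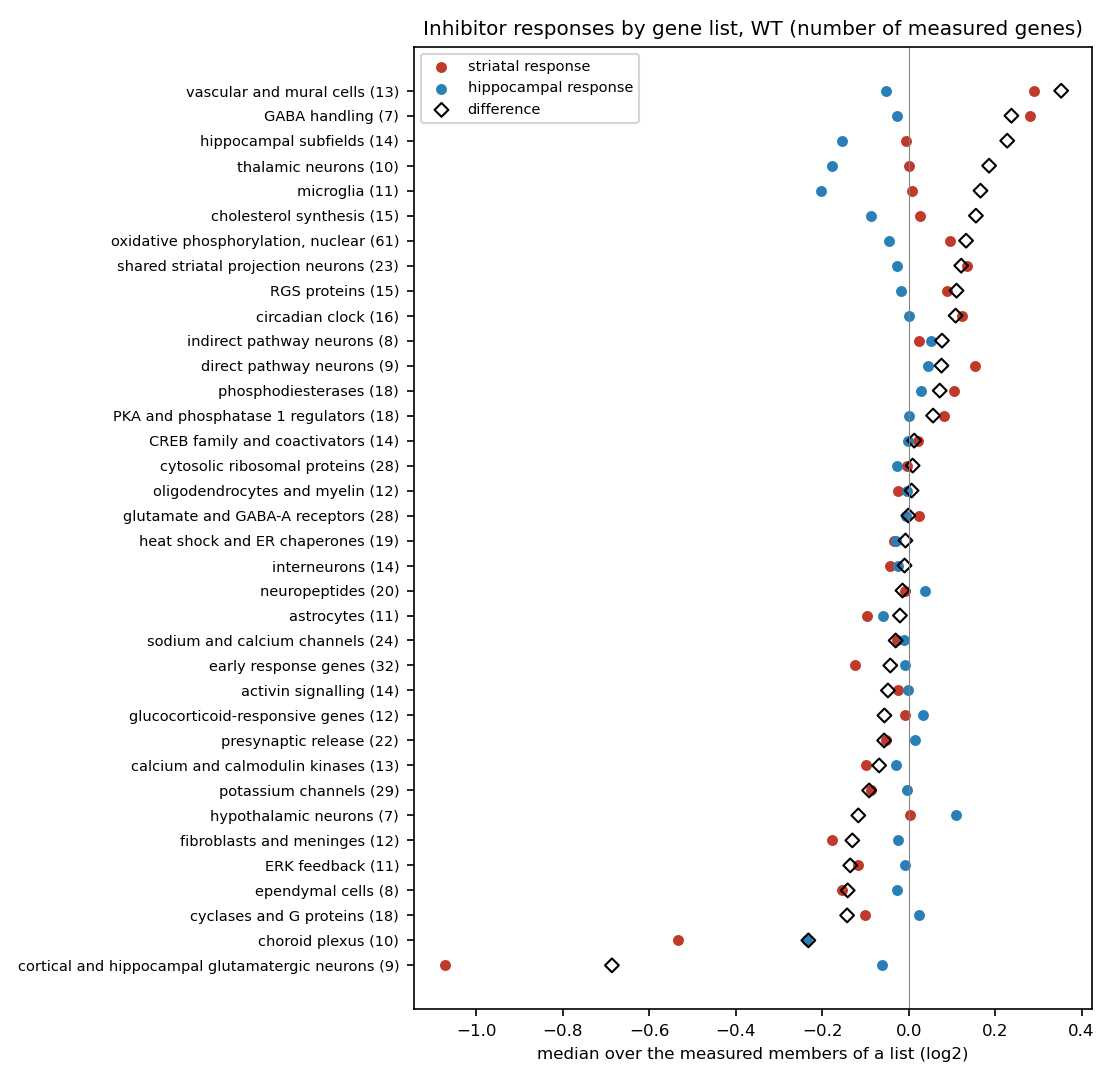
Median log2 change over the measured members of each of 36 gene lists in WT striatum (red) and WT hippocampus (blue), and the median of the region difference (open diamonds), with the number of measured genes in brackets. Vascular markers stand highest at 0.35 and glutamatergic neuron markers lowest at -0.69, and most hippocampal medians lie near 0.

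The same contrast was formed in the arrays labelled KO, where 0 genes passed and 330 (1.81%) had an unadjusted p under 0.05 (limma). Of the 39 genes, 10 had the same sign there, and the median KO value in the WT direction was -0.10. Nnat had 0.10 ± 0.26 (SE), Pde1c -0.18 ± 0.25, Fst 0.25 ± 0.17 and Clspn -0.02 ± 0.25. These values include KO STR Veh 25, which is against its label. It had 12.54 for Ppp1r2, 5.96 for Irak3 and 7.49 for Sox17. The other KO STR Veh arrays had at most 11.98, 5.23 and 6.85. Without the 8 arrays against their label the KO value was 0.02 ± 0.15 for Sox17 and -0.36 ± 0.20 for Irak3. It was 0.26 ± 0.19 for Fst and -0.10 ± 0.27 for Clspn. The signs of the 39 genes were not counted there. Tested directly with all arrays, the WT and KO region differences did not differ past the threshold for any gene. The smallest adjusted p was 0.0754, shared by Fst, Tbc1d16 and Atpsckmt, while 1970 genes (10.8%) had an unadjusted p under 0.05. The 39 genes were all among these 1970, but they were chosen on the WT values, which enter this test. Without WT STR PDE10i 13 the number past the adjusted threshold was 1, and without WT STR PDE10i 14 it was 11.

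Leaving out the 8 arrays against their label kept 18 WT arrays, with 3 STR PDE10i and 4 HPC PDE10i arrays among them. The count of genes with a region difference became 785 (4.31%), of which 600 (3.3%) were higher and 185 (1.02%) lower (limma, adjusted p under 0.05), and 38 of the 39 genes were among them. Otof was the exception (adjusted p = 0.054). The hippocampal response again had 0 genes past the threshold and 599 with an unadjusted p under 0.05, and the WT and KO region differences now differed for 103 genes. Without only the 3 striatal WT arrays and the KO STR Veh array 25 the count was 1215, and without only the hippocampal arrays it was 6, namely 3 positive and 3 negative. Leaving out HPC PDE10i 13 as well gave 707 genes, with 36 of the 39 among them (not Otof, Dgat2 and Fblim1), and 118 for WT against KO. Of the 785 genes, 33 (4.2%) lie on chromosome 17, whose genes also supplied the score, against 4.58% of all genes tested.

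The genes with the largest values in this fit were picked after their values had been seen. Nts, the precursor of neurotensin, a peptide that striatal projection neurons make, had 7.03, 7.65, 6.34, 6.63 and 6.62 on the striatal Veh arrays. On PDE10i arrays 10, 11 and 12 it had 9.94, 10.32 and 10.55, and on arrays 13, 14 and 15 it had 8.27, 7.32 and 9.60. In hippocampus both groups lay between 6.4 and 7.73. Its region difference was 3.34 ± 0.35 (SE) without the 8 arrays (limma, adjusted p = 2.79e-07) and 2.38 ± 0.68 with all arrays (adjusted p = 0.123).

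KO STR Veh array 25 had 10.48 for Nts, while the other KO STR Veh arrays had 5.99 to 6.70. Snx31, a sorting nexin, had 7.32 on that array, 6.68 to 7.16 on arrays 10 to 12, 4.04 to 4.66 on the WT STR Veh arrays and 6.4, 4.47 and 5.69 on arrays 13 to 15. Its region difference was 2.49 ± 0.17 without the 8 arrays. Between Nts and Snx31 in size stood Ighm, the heavy chain of immunoglobulin M (2.86 ± 0.62). Lgi2 (2.11), Gpr153 (2.03), Pgam2 (1.84), Irak3 (1.83) and Klhl14 (1.77) completed the 8 largest positive values.

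Negative values in this fit included genes that neurons switch on with activity. Vgf, a neuropeptide precursor, had 10.38, 10.28, 10.06, 10.24 and 9.99 on the striatal Veh arrays and 9.02, 8.54 and 8.82 on PDE10i arrays 10 to 12. Arrays 13 to 15, at 10.66, 10.77 and 10.35, did not share the low level, and KO STR Veh 25 did (8.48). Nr4a1, a nuclear receptor of the early response, had 9.05 to 10.06 on the Veh arrays, 7.74, 7.91 and 8.27 on arrays 10 to 12 and 9.49, 10.00 and 10.37 on arrays 13 to 15. Vgf differed by -1.44 ± 0.17 (SE) and Nr4a1 by -1.56 ± 0.23, and Hpcal4, a neuronal calcium sensor, by -1.50 ± 0.12. The largest negative value was that of Ryr1, a calcium release channel (-2.05 ± 0.32), and the 8 largest also held Clspn (-1.57), Wnt8b (-1.55), Phex (-1.46) and Fezf2 (-1.36).

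Within the early response list, 5 of 32 genes passed in this fit, 2 positive and 3 negative (all genes: 3.3% and 1.02%). Gadd45b (1.02) and Inhba, which encodes a subunit of activin (1.03), were positive, and Nr4a1, Egr1 (-0.91) and Egr2 (-1.16) were negative. Inhba and Fst, the inhibitor of the protein it encodes, thus had opposite signs. The clock genes Ciart (1.39) and Tef (0.28) were positive and Arntl (-0.79) negative among 16 measured, and the ERK pathway genes Spred1 (-0.89), Spred2 (-0.49) and Etv5 (-1.17), 3 of 11, were negative. Of 61 oxidative phosphorylation genes 22 passed, all positive (all genes: 3.3%), with a median of 0.23, and of 13 vascular markers 9 passed, all positive, with a median of 0.59. Of the 9 glutamatergic markers none passed, and the median was -1.12. The median of 10 choroid plexus genes, -0.23 with all arrays, was 0.58 here, with none past the threshold in either fit, and their mean ranged from 4.97 to 9.03 over the WT arrays. Full cAMP response elements lay in 3.70% of the windows of higher and 3.65% of those of lower genes, against 2.92% of all.

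**Figure D5:**
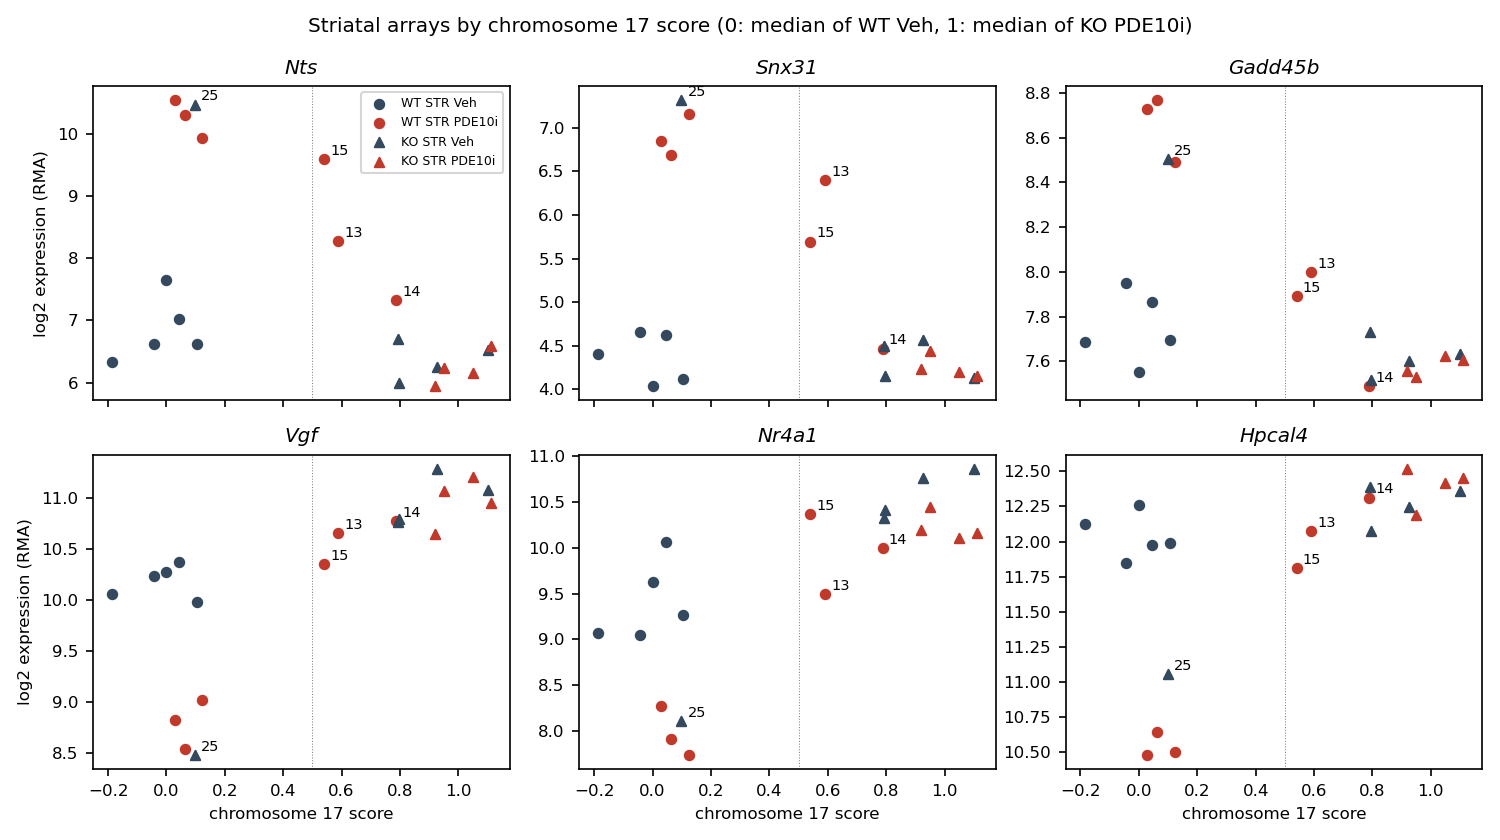
Log2 RMA signal of 6 genes on the striatal arrays against the chromosome 17 score, with circles for WT, triangles for KO, dark grey for Veh and red for PDE10i, and with numbers beside the arrays against their label. WT PDE10i arrays 10 to 12 (Nts 9.94 to 10.55) and KO STR Veh 25 (10.48) lie on the same side of the WT Veh arrays in each panel, and arrays 13 to 15 are not low with them for Vgf, Nr4a1 and Hpcal4.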

How the data were processed

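The measurements were 42 Affymetrix arrays of mouse striatal and hippocampal total RNA, labelled through biotin cRNA per the labels' protocols. The deposited values were log2 signals made by the authors with RMA, per the submitters' processing notes, and array medians lay between 6.05 and 6.12. Depth does not apply to arrays, and their number limits the precision.

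Of 45101 probe sets, 34945 had a single gene, which was named in RefSeq GRCm38.p6 for 34741. Among the 34945, the probe set with the highest mean stood for each of 18193 genes. A linear model over 8 groups and all 42 arrays was fitted with limma 3.58.1 in R 4.3.3, with 34 residual degrees of freedom and Benjamini-Hochberg adjustment over all genes. Group and replicate numbers came from the sample titles. Named were the 12 largest significant differences in each direction, significant list members (where a list had none, its smallest p as values), Pde10a and genes taken from earlier results of these data. On simulated data with 200 changed genes, the region difference was recovered for 66.7%, 94.2% and 99.4% of genes changed by 0.5, 1.0 and 1.5 (log2). There were 45 false calls over 4 runs. How far these shares hold for the real arrays was not tested. There, Nts did not pass at 2.38 with all arrays, and its striatal inhibitor arrays were uneven. The members and lists were chosen with earlier results of these data known. Of 661 list entries, 605 matched a gene. The chromosome 17 score, and its limit of 0.5, were chosen after values had been seen, from 15 genes differing by genotype label in the other region. Alternatives covered probe set choice, weights, normalization, filters, blocks, covariates and left-out arrays.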

Additional observations from a re-analysis of the deposited data

Results flagged for a closer look

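The region difference is itself a test of whether striatum and hippocampus responded differently, and 39 genes passed it. By that test the following were named, with their log2 differences (positive: more in striatum). The positive values were 1.40 for Nnat, 1.24 for Irak3, 1.22 for Myo3b, 1.20 for Pde1c, 0.88 for Sox17, 0.84 for Fam43a, 0.77 for Cftr, 0.70 for Ppp1r2, 0.68 for Atp13a5, 0.67 for Itm2a, 0.66 for both Slc7a8 and Dgat2, and 0.42 for Abat. The negative values were -1.30 for Clspn, -0.91 for Ptprv, -0.90 for Fst, -0.81 for Otof, -0.57 for Fblim1, -0.55 for Hdac4, -0.48 for Ago4, -0.46 for Tm4sf4, and -0.44 for both Rnf144a and Tnn.

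A single array stood far from the rest of its group in 4 of 92 groups of values tested, and chance alone does so in about 1 of 20 groups. On WT HPC PDE10i 13, Rnf144a was at 8.77, above the others at 8.39 to 8.51, and Dgat2 was at 9.14, below the others at 9.54 to 9.77. That array has low hippocampal subfield markers. Itm2a was at 9.92 on WT HPC PDE10i 12, above the others at 9.67 to 9.76, and that array is among those against their label. Hdac4 was at 7.88 on WT STR Veh 3, below the others at 8.15 to 8.18.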

How the results depend on the processing

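All 39 genes kept their sign wherever they were tested, and Nnat, Fst, Ptprv and Slc7a8 passed in every alternative that tested them. Against 39 genes with all arrays, the region difference passed for 23 with the mean of all probe sets. Only 18 of these were among the 39, namely 10 positive and 8 negative genes. With the WT arrays alone, so that the KO arrays did not enter the estimate of spread, 37 genes passed. Of these, 28 were among the 39, namely 20 positive and 8 negative genes. The count was 617 with array weights and 785 without the 8 arrays against their label. Without the array of highest Gapdh 3′ to 5′ difference in each group it was 119, and with the glutamatergic mean as a covariate 61. The 119 genes were 54 positive and 65 negative, so the excess of positive genes was not kept, and 32 of the 39 were among them. Of the arrays left out there, WT STR Veh 4 had a Gapdh difference of 1.05, against 0.18 to 0.28 on the other WT STR Veh arrays. Alternatives added after seeing the data gave 1215 without the striatal and 6 without the hippocampal arrays against their label, and 707 without the 8 arrays and WT HPC PDE10i 13. The WT minus KO test, with 0 genes, gave 86 with array weights, 103 without the 8 arrays, 15 without the high-Gapdh arrays, 398 without the striatal ones against their label and 118 without the 8 arrays and WT HPC PDE10i 13. Leaving out 1 array gave 19 to 154 and 0 to 11 genes. The causes were not tested. Same-numbered arrays did not deviate together (r from -0.38 to 0.31 over 20 pairs, 6 above 0.1), so the numbers were not used as pairs in the reported values. The labels do not say whether equal numbers in both regions are the same mouse. Numbers 14 and 25 were against their label in both regions, while numbers 12, 13, 15 and 26 were so in a single region. With the replicate block as differences of same-numbered arrays 26 genes passed, 21 of them among the 39 (16 positive, 5 negative), and with a random block 44.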
